A study of Mus musculus with 10 samples.

Results

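The cytochrome P450 genes of the lung were described across 3 groups of mice. Protein-coding genes with a symbol that starts with Cyp and a digit were taken, provided that they had at least 10 counts summed over the 10 libraries. This gave 89 of the 53342 genes in the table. Another 12 P450 symbols had fewer counts and were left out. The members just inside the minimum were Cyp2c38, Cyp3a41a and Cyp2j11, with 10.97, 11.5 and 13.4 summed counts, and the genes just outside it were Cyp3a44, Cyp2c37 and Cyp2d37-ps, with 7.36, 7.16 and 4.88.

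RNA was sequenced from whole lungs of mice labelled BALB/c, female and 12 weeks old. The SF-3-030+HDM group (n = 3) was dosed through the nose with SF-3-030 (10 mg/kg) and, 30 min later, with house dust mite allergen, on 5 days a week for 3 weeks. The HDM group (n = 3) received the allergen with the solvent DMSO, and the PBS group (n = 4) received buffered saline. The series title presents SF-3-030 as a function-selective agent against the kinases ERK1/2. The labels name DMSO only for HDM, and no group had the compound without allergen. Levels are given as CPM, the counts of a gene scaled to the summed counts of its library, and 1 gene is set against another only after division by the kilobases of its exons.

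Cytochrome P450 enzymes are haem proteins that insert oxygen into their substrates with electrons passed on by P450 oxidoreductase. Families 1 to 3 mainly oxidise drugs, solvents and plant compounds, family 4 mainly oxidises fatty acids and eicosanoids, and other families make or break down sterols, steroid hormones, retinoic acid and vitamin D. In the mouse lung, club cells of the airways are the best known site of P450 activity, and they are the cells injured when P450 enzymes convert naphthalene to its reactive epoxide.

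Some libraries stood apart from their labels or from the rest. The 3 SF-3-030+HDM libraries had 331 to 432 CPM of H2-Ea-ps, a gene that differs between mouse strains, against 0.107 to 0.953 CPM in the 7 HDM and PBS libraries, so the compound and this genetic split cannot be told apart in any comparison with SF-3-030+HDM. Reads of the Y-linked gene Ddx3y were present in HDM replicates 2 and 3 and in PBS replicate 2, at 20.4 to 31.5 CPM, against 0 to 0.575 CPM in the other 7 libraries. Olfactory and vomeronasal receptor genes were taken as a measure of background reads, and their own expression in lung was not examined. They summed to 16.0 to 32.6 CPM in SF-3-030+HDM, 90.4 to 230 CPM in HDM and 49.2 to 469 CPM in PBS. The highest sums were in PBS replicates 1 and 4 and HDM replicate 3. Summed counts per library ran from 38667118 to 59083942. Markers of alveolar type 2 cells, at 26756 to 35488 CPM in SF-3-030+HDM, 38615 to 55602 CPM in HDM and 39664 to 51768 CPM in PBS, fit the labelled tissue. The labels do not say whether replicates were separate animals, so p-values measure the spread between these samples.

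P450 transcripts were fewest in lungs given the compound with allergen and most abundant in saline lungs. The members summed to 1492, 1691 and 2108 CPM in the SF-3-030+HDM libraries, to 2328, 3035 and 3709 CPM in the HDM libraries, and to 5028, 5788, 5964 and 6635 CPM in the PBS libraries. The 3 groups did not overlap in this sum. Cyp2f2 alone held 43.6% to 44.7% of it in SF-3-030+HDM, 49.2% to 61.2% in HDM and 59.8% to 69.6% in PBS. Without Cyp2f2 the remaining members summed to 841 to 1175 CPM in SF-3-030+HDM, 1049 to 1540 CPM in HDM and 2016 to 2245 CPM in PBS, and the ranges of SF-3-030+HDM and HDM then overlapped.

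Per kilobase of exon, the order of the 3 highest genes was the same in each group: Cyp2f2, then Cyp4b1, then Cyp2b10. Cyp2f2 had a mean level of 385 CPM per kilobase in SF-3-030+HDM, 830 in HDM and 1850 in PBS. Cyp4b1 had 114, 180 and 398 CPM per kilobase in the same groups, and Cyp2b10 had 80.7, 148 and 182. These 3 genes together held 66.1% to 70.5% of the summed P450 CPM in SF-3-030+HDM, 76.4% to 82.99% in HDM and 84.9% to 87.6% in PBS. At the other end, 59 members had a median below 1 CPM over the 10 libraries, and 30 members were at or above it.

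**Figure D1:**
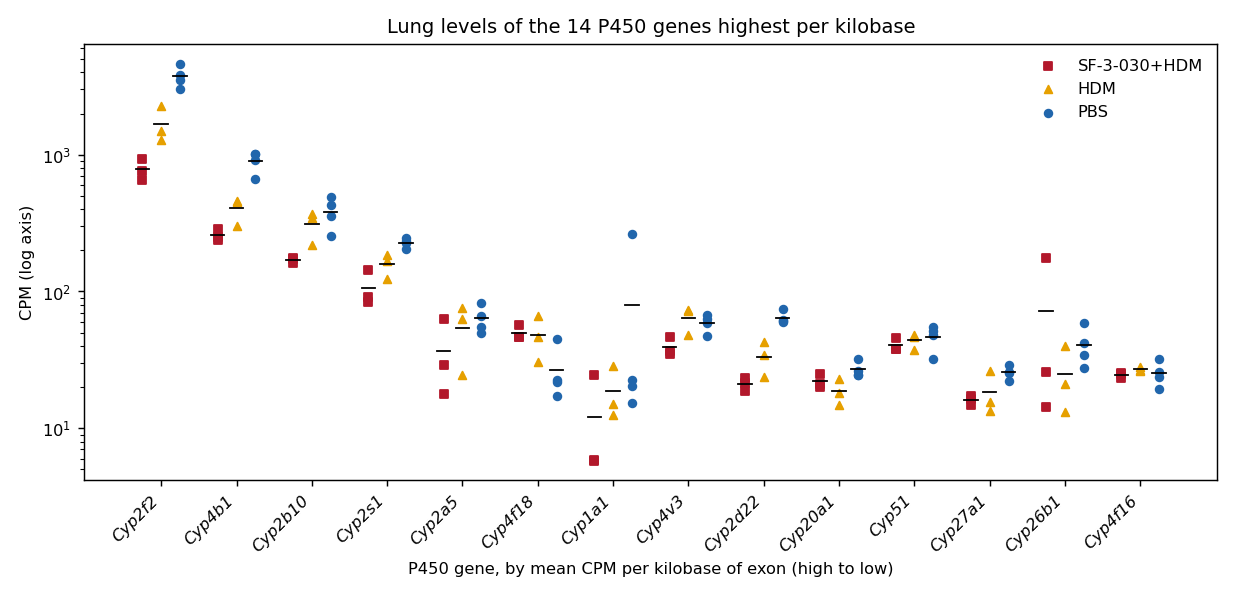
CPM (log axis) of the 14 P450 genes with the highest mean per kilobase of exon, for each library of SF-3-030+HDM (squares), HDM (triangles) and PBS (circles), with group means as bars. Cyp2f2 stands highest in every group, and 1 PBS library of Cyp1a1 and 1 SF-3-030+HDM library of Cyp26b1 lie far above the others of their group.

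Of the 89 members, 54 passed the filter on low counts and were tested with edgeR together with 26235 genes in all. A gene is called when its adjusted p is below 0.05. A member that passed the filter through 1 high group was bound to differ, so the counts below describe the tested members and not the family. In HDM against PBS, 2 tested members fell, Cyp4b1 and Cyp2d22, and 0 rose. Over all genes tested, 0.294% fell and 2.32% rose (2.61% in all), and over the 17508 protein-coding genes 0.428% fell and 2.62% rose. At an unadjusted p under 0.05, edgeR gave 7 lower and 2 higher members, the higher ones being Cyp7b1 and Cyp4f18. DESeq2 called those 2 as higher, and limma-voom called 0 as higher. The tested members had a median log2 fold change of -0.39, beside -0.09 over all genes.

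In SF-3-030+HDM against HDM, 8 tested members fell and 2 rose. Those that fell were Cyp2e1, Cyp2f2, Cyp2r1, Cyp3a11, Cyp3a13, Cyp4a12a, Cyp4a12b and Cyp4a14, and those that rose were Cyp7b1 and Cyp11a1. Over all genes tested, 6.06% fell and 3.43% rose (9.49% in all), and of protein-coding genes 5.34% fell and 3.72% rose. The median log2 fold change was -0.69 for the tested members and -0.03 for all genes. Without the 3 libraries that had Y-linked reads, Cyp3a13 and Cyp4a12b were the members called as lower and Cyp7b1 and Cyp11a1 those called as higher, with 1 HDM library left that was assumed to vary like the other groups. Leaving out 1 library at a time gave 1 to 13 lower members, beside 301 to 2263 lower genes over all tested. The members were 1 without HDM replicate 2 or SF-3-030+HDM replicate 1 or 2, and 2 without SF-3-030+HDM replicate 3. They were 4 without PBS replicate 4, 5 without HDM replicate 1 and 13 without PBS replicate 1.

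In SF-3-030+HDM against PBS, 22 tested members fell and 3 rose, Cyp7b1, Cyp11a1 and Cyp4f18. Over all genes tested, 18.1% fell and 11.8% rose (29.9% in all), and of protein-coding genes 15.7% fell and 14% rose. With upper-quartile scaling, 6108 genes fell and 2256 rose, against 4741 and 3101 with the TMM scaling used here, and 30 members fell and 2 rose. The median log2 fold change was -0.98 for the tested members and -0.11 for all genes. Setting the 4 tested members that had 0 counts in SF-3-030+HDM to a bound of 3 counts left the members' medians unchanged. At that bound the 4 members still lay below the medians, so the medians could not move. The 3 comparisons share libraries, so they are not independent of each other.

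**Figure D2:**
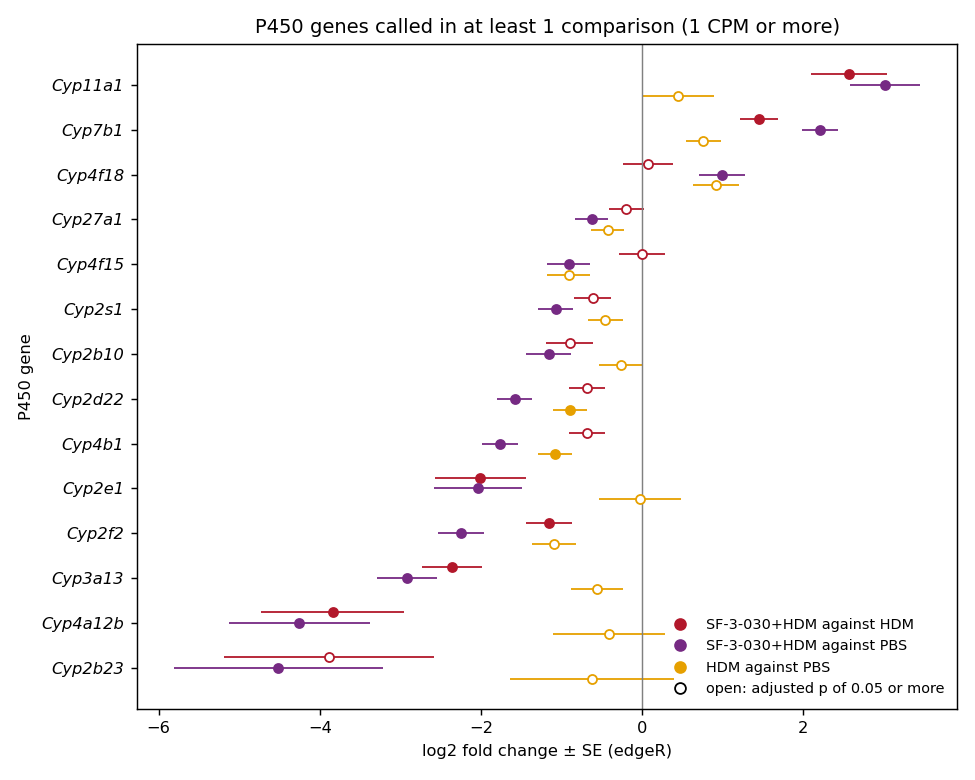
Log2 fold change ± SE from edgeR for the 14 P450 genes that averaged at least 1 CPM in 1 of the groups and were called in at least 1 of 3 comparisons: SF-3-030+HDM against HDM, SF-3-030+HDM against PBS, and HDM against PBS (filled points, adjusted p below 0.05). Cyp11a1, Cyp7b1 and Cyp4f18 lie above 0 in both comparisons with PBS, and the other genes lie below it.

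The airway P450 Cyp2f2, which oxidises naphthalene in mouse club cells, showed the largest loss in absolute level. The gene (ENSMUSG00000052974) lies at chr7:27119909-27133660 on the plus strand of GRCm38. Its level was 932, 651 and 756 CPM in SF-3-030+HDM replicates 1 to 3, 1494, 2270 and 1279 CPM in HDM replicates 1 to 3, and 3007, 4619, 3543 and 3819 CPM in PBS replicates 1 to 4. Each SF-3-030+HDM library lay below each HDM library, and each HDM library lay below each PBS library. Cyp2f2 fell by 1.15 ± 0.28 (SE) on the log2 scale in SF-3-030+HDM against HDM (edgeR adjusted p = 0.032) and by 2.25 ± 0.28 in SF-3-030+HDM against PBS (edgeR adjusted p = 0.000258). The log2 fold change of -1.10 ± 0.27 in HDM against PBS did not pass (edgeR adjusted p = 0.059), though DESeq2 and limma-voom called it, and edgeR called it without PBS replicate 1 or HDM replicate 2 (edgeR adjusted p = 0.0262 and 0.0307). The call against HDM was lost without HDM replicate 2 or any 1 of the SF-3-030+HDM libraries (edgeR adjusted p = 0.0912 to 0.13) and without the libraries with Y-linked reads (log2 fold change -0.88, edgeR adjusted p = 0.24). The call against PBS was kept in each of these fits.

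Markers of club cells differed among themselves between the allergen groups. The 10 club cell markers summed to 17364 to 22833 CPM in SF-3-030+HDM, 15274 to 19648 CPM in HDM and 22742 to 40382 CPM in PBS, so that the 2 allergen groups overlapped. Scgb1a1, the club cell secretoglobin, held 92.5% to 98.0% of this sum. The other 9 markers summed to 351 to 592 CPM in SF-3-030+HDM, 660 to 794 CPM in HDM and 1360 to 1885 CPM in PBS, without overlap and in the order of Cyp2f2. Much of this sum in HDM and PBS was Scgb3a2, at 322 to 368 and 709 to 1328 CPM, against 43.5 to 67.1 CPM in SF-3-030+HDM. The order of the sum therefore depends on Scgb3a2, and without it the allergen groups overlap. Of the 10 markers, 1 fell in SF-3-030+HDM against HDM, 4 fell in SF-3-030+HDM against PBS and 2 fell in HDM against PBS. The shares of all genes tested that fell were 6.06%, 18.1% and 0.294%. The median log2 fold change of the 10 was 0.09 in SF-3-030+HDM against HDM, so the markers did not fall there as a set. It was -0.77 in SF-3-030+HDM against PBS and -0.61 in HDM against PBS. Per 1000 CPM of the 10 markers, Cyp2f2 had 36.7 to 43.5 CPM in SF-3-030+HDM, 82.6 to 116 CPM in HDM and 102 to 132 CPM in PBS. The SF-3-030+HDM libraries lay below all others in this ratio, while HDM and PBS overlapped. Scgb1a1 averaged 18866 ± 2930 CPM in SF-3-030+HDM, 16087 ± 2495 CPM in HDM and 30824 ± 7356 CPM in PBS (SD, n = 3, 3 and 4), and did not pass in any comparison. Scgb3a2, another airway secretoglobin, fell in all 3 comparisons, to 51.4 ± 13.6 CPM in SF-3-030+HDM, against 349 ± 23.9 CPM in HDM and 1040 ± 307 CPM in PBS (SD, n = 3, 3 and 4). In SF-3-030+HDM against HDM, Scgb3a2 fell by 2.80 ± 0.26 on the log2 scale (edgeR adjusted p = 7.99e-05), while the log2 fold changes of Bpifa1 and Lypd2, -1.82 and -0.77, did not pass (edgeR adjusted p = 0.0573 and 0.107). In whole lung, fewer cells of a type and less RNA per cell cannot be told apart, and the part of cell composition in these results was not tested.

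**Figure D3:**
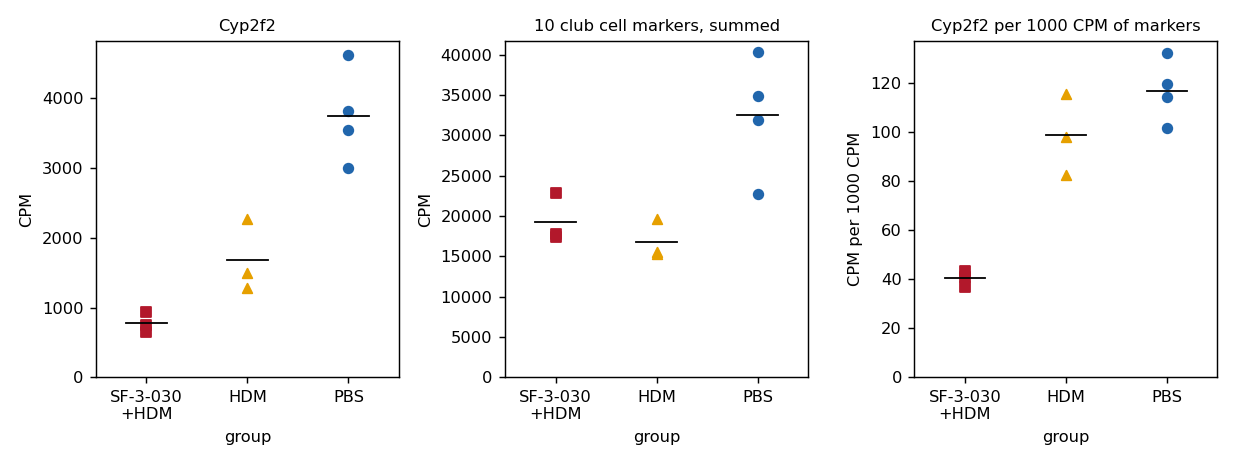
Cyp2f2 level in CPM, the summed CPM of 10 club cell markers, and Cyp2f2 CPM per 1000 CPM of these markers, for each library of SF-3-030+HDM, HDM and PBS with group means as bars. Scgb1a1 makes up 92.5% to 98.0% of the marker sum. In the right panel the SF-3-030+HDM libraries sit at 36.7 to 43.5 and the other 7 at 82.6 to 132.

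The other abundant members of the family 2 cluster on chromosome 7 were Cyp2b10, Cyp2s1 and Cyp2a5. Of the 13 members assigned to this cluster, 10 were tested. Of these, 5 fell in SF-3-030+HDM against PBS, where 18.1% of all genes tested fell. Against HDM, 1 of the 10 fell, Cyp2f2, and 6.06% of all genes tested fell. The cluster counts were not tested against these shares. Cyp2b10, the best known target of the receptor CAR in mouse liver, had 176, 162 and 173 CPM in SF-3-030+HDM, 369, 346 and 220 CPM in HDM, and 255, 358, 432 and 490 CPM in PBS. The SF-3-030+HDM libraries lay close together below all others. Cyp2b10 fell by 1.16 ± 0.28 on the log2 scale in SF-3-030+HDM against PBS (edgeR adjusted p = 0.0113), a call lost without SF-3-030+HDM replicate 1 or 2 (edgeR adjusted p = 0.0504 and 0.0557). Its log2 fold change of -0.90 ± 0.29 against HDM did not pass (edgeR adjusted p = 0.0692), and was called without PBS replicate 1 (-0.93, edgeR adjusted p = 0.0176) and without the 3 libraries with most receptor reads (-1.14, edgeR adjusted p = 0.00226).

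Cyp2s1, a P450 found mostly outside the liver, had 143, 84.0 and 90.4 CPM in SF-3-030+HDM, 167, 184 and 123 CPM in HDM, and 245, 205, 233 and 224 CPM in PBS. SF-3-030+HDM and HDM overlapped, and each lay below PBS. Cyp2s1 fell by 1.08 ± 0.22 on the log2 scale in SF-3-030+HDM against PBS (edgeR adjusted p = 0.00511), a call kept in every fit without 1 library. Against HDM it was called without the libraries with most receptor reads (-0.81, edgeR adjusted p = 0.0453) and not over all libraries. Cyp2a5, which oxidises nicotine and coumarin, had 63.1, 17.8 and 28.8 CPM in SF-3-030+HDM, 76.0, 62.8 and 24.5 CPM in HDM, and 55.5, 82.1, 66.7 and 49.6 CPM in PBS. The groups overlapped and Cyp2a5 passed in none of the 3 comparisons. Cyp2a5 shares 22.3% of its stretches of 75 bases with other genes, mainly its copy Cyp2a4, so its counts depend on how shared reads were assigned. Cyp2f2 and Cyp2s1 each overlap a predicted gene on the opposite strand, and the strand of the libraries is not given in the sources used here.

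Cyp2b23, another gene of this cluster, was high in libraries with many receptor reads. It had 0.0766, 0 and 0.0508 CPM in SF-3-030+HDM, 0.25, 0.403 and 1.24 CPM in HDM, and 2.87, 0.135, 0.121 and 1.19 CPM in PBS. The 3 highest values belonged to the 3 libraries with the most receptor reads. Its fall in SF-3-030+HDM against PBS (log2 fold change -4.52 ± 1.29, edgeR adjusted p = 0.0233) was lost without those libraries (-1.66, edgeR adjusted p = 0.225) and without any 1 of the SF-3-030+HDM libraries (edgeR adjusted p = 0.0635 to 0.0784). Against HDM, Cyp2b23 was called without PBS replicate 1 or 3 or the libraries with most receptor reads (edgeR adjusted p = 0.0495, 0.0494 and 0.0480) and not over all libraries.

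Cyp4b1, a lung-enriched P450 of family 4 that activates plant toxins such as ipomeanol, was the most abundant member after Cyp2f2. The gene (ENSMUSG00000028713) lies at chr4:115624725-115647723 on the minus strand. Its level was 286, 239 and 249 CPM in SF-3-030+HDM, 454, 462 and 302 CPM in HDM, and 1008, 662, 1007 and 916 CPM in PBS. The 3 groups did not overlap. Cyp4b1 fell by 1.08 ± 0.21 on the log2 scale in HDM against PBS (edgeR adjusted p = 0.0194) and by 1.77 ± 0.22 in SF-3-030+HDM against PBS (edgeR adjusted p = 0.000227). The log2 fold change of -0.69 ± 0.22 in SF-3-030+HDM against HDM did not pass (edgeR adjusted p = 0.0706), and was called without PBS replicate 1, HDM replicate 3 or the libraries with most receptor reads (edgeR adjusted p = 0.0481, 0.0403 and 0.0197). The allergen call was lost without HDM replicate 1 or 3 or PBS replicate 3 or 4 (edgeR adjusted p = 0.0541 to 0.0682), without the libraries with Y-linked reads (-1.11, edgeR adjusted p = 0.162) and without those with most receptor reads (-0.83, edgeR adjusted p = 0.131). Markers of alveolar type 1 cells summed to 4691 to 5280 CPM in SF-3-030+HDM, 5637 to 7033 CPM in HDM and 8939 to 9784 CPM in PBS, in the same order, and those of ciliated cells to 346 to 516, 543 to 663 and 860 to 1498 CPM. Their part in the fall of Cyp4b1 was not tested.

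Among the other B, F and V genes of family 4, Cyp4f18 rose and Cyp4f15 fell. Cyp4f18, which inactivates leukotriene B4 in mouse neutrophils, had 46.8, 46.1 and 56.7 CPM in SF-3-030+HDM, 46.7, 30.5 and 65.9 CPM in HDM, and 44.6, 21.8, 22.5 and 17.2 CPM in PBS. PBS replicate 1 reached the level of the allergen groups, just below the lowest SF-3-030+HDM library. Cyp4f18 rose by 0.99 ± 0.28 on the log2 scale in SF-3-030+HDM against PBS (edgeR adjusted p = 0.0238), a call lost without PBS replicate 4 or SF-3-030+HDM replicate 3 (edgeR adjusted p = 0.077 and 0.0818) or with upper-quartile scaling (0.73, edgeR adjusted p = 0.128). The log2 fold change of 0.92 ± 0.28 in HDM against PBS did not pass (edgeR adjusted p = 0.151), and without PBS replicate 1 it was called, at 1.22 (edgeR adjusted p = 0.0202). Macrophage and monocyte markers summed to 1085 to 1833 CPM in SF-3-030+HDM, 1293 to 1533 CPM in HDM and 463 to 622 CPM in PBS, and neutrophil markers to 454 to 486, 167 to 273 and 267 to 478 CPM. Their part in the rise was not tested. Cyp4f18 overlaps Zfp961 on the opposite strand.

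Cyp4f15, a fatty acid hydroxylase, averaged 5.05 ± 1.33 CPM in SF-3-030+HDM and 9.51 ± 1.81 CPM in PBS (SD, n = 3 and 4), a log2 fold change of -0.91 ± 0.27 (edgeR adjusted p = 0.0259). The call was lost without PBS replicate 3 or SF-3-030+HDM replicate 2 or 3 (edgeR adjusted p = 0.0591 to 0.107), and Cyp4f15 was called in HDM against PBS without PBS replicate 1 (-1.06, edgeR adjusted p = 0.0282). Cyp4v3, the mouse counterpart of the human fatty acid hydroxylase CYP4V2, had 36.9, 35.1 and 46.7 CPM in SF-3-030+HDM, 72.3, 72.8 and 47.7 CPM in HDM, and 47.5, 58.5, 63.1 and 66.9 CPM in PBS. The SF-3-030+HDM libraries lay below all others, and Cyp4v3 passed in none of the 3 comparisons (edgeR adjusted p = 0.0908 against HDM in SF-3-030+HDM). Without PBS replicate 1 it was called as lower in SF-3-030+HDM, against HDM (-0.75, edgeR adjusted p = 0.0379) and against PBS (-0.70, edgeR adjusted p = 0.0315), and likewise without the libraries with most receptor reads (edgeR adjusted p = 0.0123 and 0.0329).

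The promoters of Cyp2f2 and Cyp4b1, the most abundant members, and of Cyp3a13, which kept its calls in all fits, are shown because these genes fell in SF-3-030+HDM. Each runs from 250 bases before to 50 bases after the RefSeq start on GRCm38.p6, read 5′ to 3′ on the strand of the gene. Capitals mark TGANTCA, where N is any base, searched on both strands. It is a loose form of TGACTCA and TGAGTCA, the core motif of AP-1, a transcription factor that acts downstream of ERK. The windows are chr7:27119705-27120004 on the plus strand for Cyp2f2, chr4:115647672-115647971 on the minus strand for Cyp4b1 and chr5:137921570-137921869 on the minus strand for Cyp3a13.
Cyp2f2: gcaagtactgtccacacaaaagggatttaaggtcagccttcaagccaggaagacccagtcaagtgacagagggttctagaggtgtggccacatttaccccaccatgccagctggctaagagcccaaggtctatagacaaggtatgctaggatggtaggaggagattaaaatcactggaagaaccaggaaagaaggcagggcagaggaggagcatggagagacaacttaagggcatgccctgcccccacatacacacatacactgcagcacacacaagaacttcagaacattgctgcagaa
Cyp4b1: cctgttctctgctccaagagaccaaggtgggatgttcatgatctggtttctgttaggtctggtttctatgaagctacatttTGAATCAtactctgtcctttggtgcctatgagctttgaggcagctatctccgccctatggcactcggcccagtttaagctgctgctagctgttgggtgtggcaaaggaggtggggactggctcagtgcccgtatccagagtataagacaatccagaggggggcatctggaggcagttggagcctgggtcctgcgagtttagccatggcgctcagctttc
Cyp3a13: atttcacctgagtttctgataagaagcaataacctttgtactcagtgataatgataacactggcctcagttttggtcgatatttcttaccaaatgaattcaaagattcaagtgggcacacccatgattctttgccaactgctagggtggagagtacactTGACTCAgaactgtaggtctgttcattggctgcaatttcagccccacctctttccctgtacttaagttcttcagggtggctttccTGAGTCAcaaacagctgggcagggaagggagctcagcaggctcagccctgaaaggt
The loose form was in 7.81% of 32851 RefSeq promoters of this length and in those of 6 of the 68 members found in the table (8.82%). Cyp3a13 held it as TGACTCA and TGAGTCA, at 91 and 6 bases before the start. Cyp4b1 held it as TGAATCA, which is not the AP-1 core, at 169 bases before the start. The letters were not in the Cyp2f2 window. A match describes the sequence and does not show that a factor binds there.

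Cyp3a13, the family 3 gene with the highest level in these lungs, fell in both comparisons with the compound. The gene (ENSMUSG00000029727) lies at chr5:137892932-137921619 on the minus strand, and family 3 is known for oxidising drugs and steroids. Its level was 0.826, 0.757 and 0.478 CPM in SF-3-030+HDM, 4.22, 3.83 and 2.14 CPM in HDM, and 3.67, 4.2, 6.41 and 6.36 CPM in PBS. Each SF-3-030+HDM library lay below the lowest of the others, while HDM and PBS overlapped. Cyp3a13 fell by 2.36 ± 0.37 on the log2 scale in SF-3-030+HDM against HDM (edgeR adjusted p = 0.0031) and by 2.92 ± 0.37 in SF-3-030+HDM against PBS (edgeR adjusted p = 0.000252). Both calls were kept in every alternative fit.

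Cyp2d22, the most abundant D gene of family 2 here, was called in the 2 comparisons with PBS. It had 23.4, 21.4 and 18.8 CPM in SF-3-030+HDM, 42.5, 34.1 and 23.6 CPM in HDM, and 61.8, 60.1, 74.5 and 60.7 CPM in PBS. The groups did not overlap, with HDM replicate 3 just above the highest SF-3-030+HDM library. Cyp2d22 fell by 1.58 ± 0.22 on the log2 scale in SF-3-030+HDM against PBS (edgeR adjusted p = 0.000435), a call kept in every alternative fit. Its fall of 0.90 ± 0.21 in HDM against PBS (edgeR adjusted p = 0.0466) was lost when any 1 library other than PBS replicate 1 was left out (edgeR adjusted p = 0.0507 to 0.169) and without the libraries with Y-linked reads (-0.64, edgeR adjusted p = 0.698). Against HDM, Cyp2d22 was called as lower in SF-3-030+HDM without PBS replicate 1, HDM replicate 3 or the libraries with most receptor reads (edgeR adjusted p = 0.0357, 0.0311 and 0.00469), and not over all libraries.

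Cyp2e1, which oxidises ethanol and small solvents, had 4.4, 1.09 and 1.9 CPM in SF-3-030+HDM, 14.9, 10.1 and 3.96 CPM in HDM, and 5.29, 10.9, 13.3 and 10.5 CPM in PBS. SF-3-030+HDM replicate 1 lay above HDM replicate 3, and all SF-3-030+HDM libraries lay below PBS. Cyp2e1 fell by 2.01 ± 0.57 on the log2 scale in SF-3-030+HDM against HDM (edgeR adjusted p = 0.0474) and by 2.04 ± 0.55 in SF-3-030+HDM against PBS (edgeR adjusted p = 0.0179). The call against HDM was lost without HDM replicate 1 or 2, PBS replicate 4 or any 1 SF-3-030+HDM library (edgeR adjusted p = 0.0529 to 0.153), and the call against PBS without SF-3-030+HDM replicate 2 or 3 (edgeR adjusted p = 0.0718 and 0.0714). Cyp2e1 is also expressed by fat cells, whose 8 markers summed to 18.9 to 36.6 CPM in SF-3-030+HDM, 52.5 to 102 CPM in HDM and 58.5 to 130 CPM in PBS. Of the 7 that were tested, 5 fell in SF-3-030+HDM against HDM and 6 fell in SF-3-030+HDM against PBS. Of all genes tested, 6.06% and 18.1% fell in these comparisons. The part of fat cells in the fall of Cyp2e1 was not tested. Cyp2u1 and Cyp2j6, which oxidise arachidonic acid and related fatty acids, passed in none of the comparisons over all libraries. Without PBS replicate 2, Cyp2u1 was called as lower in SF-3-030+HDM against PBS (-0.999, edgeR adjusted p = 0.0372). Cyp2u1 averaged 2.21 ± 0.512 CPM in SF-3-030+HDM, 3.12 ± 0.517 CPM in HDM and 4.04 ± 2.36 CPM in PBS, and Cyp2j6 averaged 12.0 ± 1.1 CPM, 10.5 ± 2.57 CPM and 14.5 ± 1.34 CPM (SD, n = 3, 3 and 4).

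The A genes of family 4, which add a hydroxyl group to the end of fatty acids and make 20-HETE from arachidonic acid, were scarce. Cyp4a12b, the highest of them per kilobase of exon in HDM and PBS, had 0.0698, 0 and 0.135 CPM in SF-3-030+HDM, 1.98, 0.664 and 0.463 CPM in HDM, and 0.802, 2.12, 1.12 and 1.52 CPM in PBS. Every SF-3-030+HDM library lay below every other library. Cyp4a12b fell by 3.84 ± 0.89 on the log2 scale in SF-3-030+HDM against HDM (edgeR adjusted p = 0.0253) and by 4.25 ± 0.88 in SF-3-030+HDM against PBS (edgeR adjusted p = 0.0055). The call against HDM was lost without HDM replicate 1 or 2 or SF-3-030+HDM replicate 1 or 2 (edgeR adjusted p = 0.0518 to 0.103), and the call against PBS was kept in every alternative fit. Cyp4a12b and its neighbour Cyp4a12a share 41.3% and 40.8% of their stretches of 75 bases with other genes, so reads may be split between these copies. Cyp4a32, the highest A gene per kilobase in SF-3-030+HDM and named after its values were seen, averaged 0.562 ± 0.262 CPM in SF-3-030+HDM, 0.375 ± 0.169 CPM in HDM and 0.503 ± 0.102 CPM in PBS (SD, n = 3, 3 and 4), and passed in none of the comparisons.

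Sterol enzymes included the clearest rise, that of Cyp7b1. This enzyme hydroxylates oxysterols, and from 25-hydroxycholesterol it makes the dihydroxylated form that guides B cells and other immune cells through the receptor EBI2. The gene (ENSMUSG00000039519) lies at chr3:18071950-18243338 on the minus strand. Its level was 13.6, 15.1 and 16.3 CPM in SF-3-030+HDM, 5.4, 3.63 and 7.5 CPM in HDM, and 3.45, 3.55, 3.19 and 3.13 CPM in PBS. Each SF-3-030+HDM library lay well above the HDM libraries, which in turn lay above the tightly grouped PBS libraries. Cyp7b1 rose by 1.45 ± 0.23 on the log2 scale in SF-3-030+HDM against HDM (edgeR adjusted p = 0.00374) and by 2.21 ± 0.22 in SF-3-030+HDM against PBS (edgeR adjusted p = 5.04e-05), and both calls were kept in every alternative fit. The log2 fold change of 0.76 ± 0.22 in HDM against PBS did not pass (edgeR adjusted p = 0.112). B and plasma cell markers summed to 2515 to 3228 CPM in SF-3-030+HDM, 2263 to 3353 CPM in HDM and 724 to 1366 CPM in PBS, with the 2 allergen groups overlapping.

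Of the 6 tested sterol and bile acid genes, Cyp27a1 was the other 1 called, in SF-3-030+HDM against PBS. Cyp27a1, the mitochondrial sterol 27-hydroxylase, averaged 16.2 ± 1.23 CPM in SF-3-030+HDM and 25.6 ± 2.81 CPM in PBS (SD, n = 3 and 4), a log2 fold change of -0.63 ± 0.21 (edgeR adjusted p = 0.0393). The call was lost in 6 of the 10 fits without 1 library, namely without any SF-3-030+HDM library, PBS replicate 2 or 3 or HDM replicate 2 (edgeR adjusted p = 0.0659 to 0.13). Cyp51, the lanosterol demethylase of cholesterol synthesis, had 37.8, 38.1 and 45.5 CPM in SF-3-030+HDM, 46.8, 48.0 and 37.4 CPM in HDM, and 32.2, 48.2, 51.4 and 55.0 CPM in PBS. The groups overlapped and Cyp51 passed in none of the 3 comparisons. Cyp7a1, the rate-limiting enzyme of bile acid synthesis in liver, was named after its values were seen. It was below the filter on low counts, at 0 CPM in all 3 SF-3-030+HDM libraries, 0.081 to 0.66 CPM in HDM and 0.0501 to 0.624 CPM in PBS. With no filter, edgeR called Cyp7a1 as lower in SF-3-030+HDM against HDM and against PBS (edgeR adjusted p = 0.0191 and 0.0133), and so did DESeq2. Cyp7a1 also passed the filter in some fits without 1 library. It was called against HDM without HDM replicate 1 (edgeR adjusted p = 0.0478), and not without HDM replicate 2 or any 1 SF-3-030+HDM library (edgeR adjusted p = 0.0796 to 0.123). Against PBS it was called without HDM replicate 1 or 2 (edgeR adjusted p = 0.0295 and 0.0365), and not without any 1 SF-3-030+HDM library (edgeR adjusted p = 0.0644 to 0.0715). Without the libraries with Y-linked reads, which left 1 HDM library, the log2 fold changes were -5.04 against HDM and -6.74 against PBS.

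Cyp11a1, the side-chain cleavage enzyme that opens steroid synthesis, rose in both comparisons with the compound. The gene (ENSMUSG00000032323) lies at chr9:58006411-58027023 on the plus strand. It had 5.54, 6.17 and 5.15 CPM in SF-3-030+HDM, 0.527, 0.659 and 1.63 CPM in HDM, and 1.2, 0.51, 0.317 and 0.892 CPM in PBS. The SF-3-030+HDM libraries stood together far above all others, and HDM and PBS overlapped. Cyp11a1 rose by 2.56 ± 0.47 on the log2 scale in SF-3-030+HDM against HDM (edgeR adjusted p = 0.00816) and by 3.01 ± 0.44 in SF-3-030+HDM against PBS (edgeR adjusted p = 0.000631). Both calls were kept in every alternative fit. T cell markers summed to 241 to 277 CPM in SF-3-030+HDM, 220 to 270 CPM in HDM and 103 to 161 CPM in PBS, and the strain-variable mast cell gene Tpsab1 had 11.9 to 15.4 CPM in SF-3-030+HDM against at most 0.281 CPM in the other libraries. Their part in the rise was not tested. The annotation places the predicted gene Gm17322 over Cyp11a1 on the same strand, so reads may be shared between them. The later steroid enzymes Cyp11b1, Cyp17a1 and Cyp21a1 were too low to test, at no more than 0.421 CPM in any library.

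The family 1 genes, which dioxins and polycyclic aromatic compounds induce through the aryl hydrocarbon receptor AHR, were set apart by PBS replicate 2. Cyp1a1 had 5.88, 5.81 and 24.5 CPM in SF-3-030+HDM, 12.6, 15.1 and 28.3 CPM in HDM, and 22.4, 262, 20.5 and 15.4 CPM in PBS. Cyp1b1 had 14.3, 13.0 and 15.9 CPM in SF-3-030+HDM, 13.0, 11.6 and 8.49 CPM in HDM, and 8.08, 25.2, 8.64 and 7.05 CPM in PBS. Cyp1a2 had 0.0524, 0.0358 and 0.00339 CPM in SF-3-030+HDM, 0.0193, 0.0381 and 0.066 CPM in HDM, and 0.106, 0.341, 0.0339 and 0.02 CPM in PBS, and was too low to test. PBS replicate 2 was the highest library for all 3 genes.

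Cyp1a1 and Cyp1b1 passed in no comparison over all libraries, and what they showed turned on PBS replicate 2. Cyp1a1 had a log2 fold change of -2.69 ± 1.05 in SF-3-030+HDM against PBS (edgeR adjusted p = 0.0711) and of -2.10 ± 1.02 in HDM against PBS (edgeR adjusted p = 0.51), which became 0.01 without PBS replicate 2. The first was called without PBS replicate 1 or 3 or the libraries with most receptor reads (edgeR adjusted p = 0.0497, 0.0465 and 0.0308). Cyp1b1 had a log2 fold change of 0.25 ± 0.41 in SF-3-030+HDM against PBS (edgeR adjusted p = 0.678), and without PBS replicate 2 it was called as higher, at 0.92 (edgeR adjusted p = 0.0122). Other genes that AHR is known to regulate were also highest in PBS replicate 2 among the PBS libraries. Nqo1 had 23.0 CPM there and 5.27 to 6.7 CPM in the other PBS libraries, Aldh3a1 had 58.8 CPM there and 23.6 to 38.6 CPM in the others, and the AHR repressor Ahrr had 0.569 CPM there and 0.0901 to 0.165 CPM in the others. Tiparp, a further AHR target, had 31.0 CPM in PBS replicate 2 and 24.4 to 30.9 CPM in the other PBS libraries. PBS replicate 2 is also the PBS library with Y-linked reads.

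**Figure D4:**
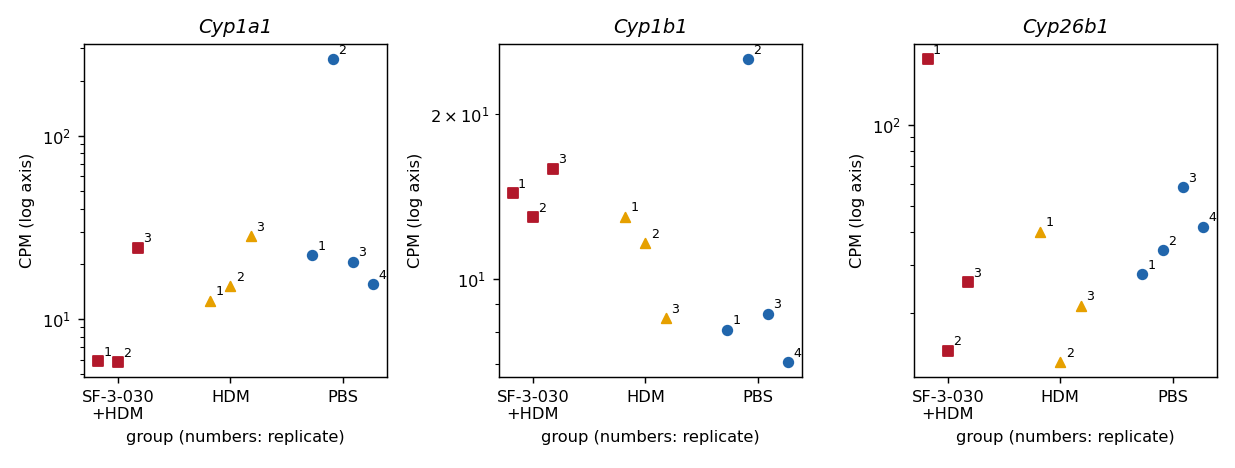
CPM (log axis) of Cyp1a1, Cyp1b1 and Cyp26b1 in each library of SF-3-030+HDM, HDM and PBS, numbered by replicate. PBS replicate 2 lies above the rest for Cyp1a1 and Cyp1b1, and SF-3-030+HDM replicate 1 lies above the rest for Cyp26b1.

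The family 1 promoters are shown because the genes peaked together in PBS replicate 2. The windows, from the same RefSeq table on GRCm38.p6, are chr9:57697363-57697662 on the plus strand for Cyp1a1, chr17:79715012-79715311 on the minus strand for Cyp1b1 and chr9:57683606-57683905 on the minus strand for Cyp1a2. Capitals mark GCGTG, the core bound by AHR with its partner ARNT, searched on both strands, which reads CACGC where it lies on the other strand.
Cyp1a1: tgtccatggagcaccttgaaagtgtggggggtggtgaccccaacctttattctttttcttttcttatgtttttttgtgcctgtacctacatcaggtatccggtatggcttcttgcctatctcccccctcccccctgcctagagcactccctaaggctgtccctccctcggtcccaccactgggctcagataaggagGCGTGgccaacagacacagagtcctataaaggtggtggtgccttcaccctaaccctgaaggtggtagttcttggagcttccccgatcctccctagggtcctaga
Cyp1b1: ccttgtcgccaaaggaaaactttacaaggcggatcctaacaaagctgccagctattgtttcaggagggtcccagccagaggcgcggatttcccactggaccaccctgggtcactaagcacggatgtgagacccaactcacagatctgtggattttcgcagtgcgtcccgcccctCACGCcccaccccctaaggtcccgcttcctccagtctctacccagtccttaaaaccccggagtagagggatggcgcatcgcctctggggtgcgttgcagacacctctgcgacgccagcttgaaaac
Cyp1a2: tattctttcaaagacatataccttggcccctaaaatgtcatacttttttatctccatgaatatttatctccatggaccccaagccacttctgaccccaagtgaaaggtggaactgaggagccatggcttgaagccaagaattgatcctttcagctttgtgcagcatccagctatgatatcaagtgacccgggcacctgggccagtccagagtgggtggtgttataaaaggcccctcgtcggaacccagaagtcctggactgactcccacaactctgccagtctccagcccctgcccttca
The core lay 54 bases before the start of Cyp1a1 and, on the other strand, 76 bases before that of Cyp1b1, and its letters were not in the Cyp1a2 window. It was in 32.4% of all RefSeq promoters of this length and in those of 16 of the 68 members found (23.5%), so a match of these letters is common.

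Cyp26b1, which degrades retinoic acid, was likewise set by 1 library. It had 175, 14.4 and 26.0 CPM in SF-3-030+HDM, 40.0, 13.1 and 21.2 CPM in HDM, and 27.8, 34.2, 58.7 and 41.7 CPM in PBS. SF-3-030+HDM replicate 1 was far above all other libraries, and the other two lay within the range of the rest. The log2 fold change of 1.497 ± 0.74 in SF-3-030+HDM against HDM did not pass (edgeR adjusted p = 0.202), and became -0.22 without that library. Against PBS it was 0.79 ± 0.67 (edgeR adjusted p = 0.396), and -0.93 without that library. Cyp26a1 and Cyp26c1, the other retinoic acid hydroxylases, had at most 1.02 CPM in any library. Cyp26c1 was too low to test. Cyp26a1 passed in none of the comparisons over all libraries, with a log2 fold change of -2.13 in SF-3-030+HDM against PBS (edgeR adjusted p = 0.068). It was called there without PBS replicate 2 or 3 (edgeR adjusted p = 0.0366 and 0.0349) and by DESeq2.

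The summed level of the members with few reads was lowest in SF-3-030+HDM. The 59 members below 1 CPM summed to 5.6, 5.46 and 3.61 CPM in SF-3-030+HDM, 10.4, 9.63 and 14.5 CPM in HDM, and 26.9, 9.18, 8.72 and 19.6 CPM in PBS. All SF-3-030+HDM libraries lay below all others, and the highest sums were in PBS replicates 1 and 4 and HDM replicate 3. The receptor genes named above as a measure of background summed to 32.6, 31.1 and 16.0 CPM in SF-3-030+HDM, 90.4, 115 and 230 CPM in HDM, and 469, 59.7, 49.2 and 308 CPM in PBS, and were highest in the same 3 libraries. Between 30 and 36 of the 59 genes had any read in an SF-3-030+HDM library, against 49 to 57 in HDM and 49 to 56 in PBS. Over all genes, 28929 to 30689 had any read in an SF-3-030+HDM library, against 36334 to 39609 in HDM and 33371 to 39506 in PBS. Markers of hepatocytes summed to 13.0 to 21.4 CPM in SF-3-030+HDM, 5.0 to 15.1 CPM in HDM and 4.36 to 6.05 CPM in PBS. Of the 8 that were tested, 3 fell and 2 rose in SF-3-030+HDM against HDM, where 6.06% of all genes tested fell and 3.43% rose. Some low members ran the other way, such as Cyp46a1, the cholesterol 24-hydroxylase of brain, named after its values were seen, which averaged 0.790 ± 0.339 CPM in SF-3-030+HDM, 0.330 ± 0.0872 CPM in HDM and 0.479 ± 0.161 CPM in PBS (SD, n = 3, 3 and 4) and passed in none of the comparisons. The part of the background reads in these levels was not tested.

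**Figure D5:**
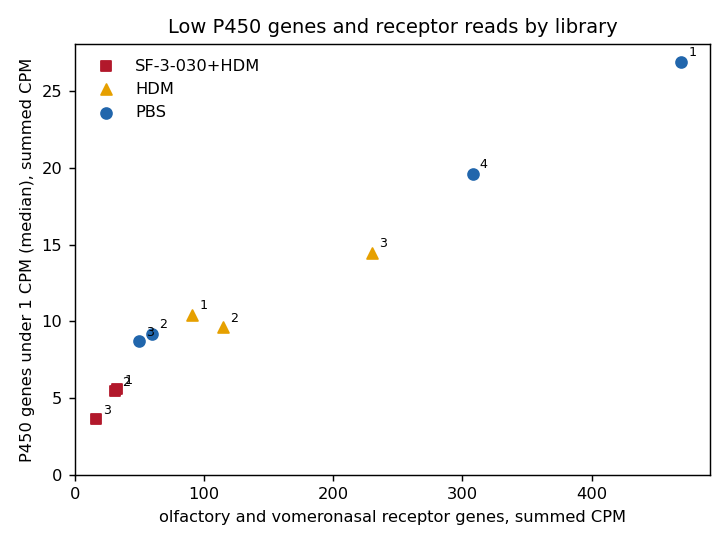
Summed CPM of the 59 P450 genes below 1 CPM (vertical axis) against the summed CPM of olfactory and vomeronasal receptor genes (horizontal axis), 1 point per library, numbered by replicate. The 3 SF-3-030+HDM libraries lie lowest on both axes, and PBS replicates 1 and 4 and HDM replicate 3 lie highest.

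Of these low members 24 were tested, and 13 of them were among the 22 that fell in SF-3-030+HDM against PBS. Without the 3 libraries with most receptor reads, which left 2 HDM and 2 PBS libraries, 16 low members were tested and 4 fell, while 13 of the 30 higher members fell, against 9 with all libraries. In that fit 11.3% of all genes tested fell, against 18.1% with all libraries. Against HDM, 5 low members and 3 higher members fell with all libraries, and 5 and 10 fell without those 3. Of all genes tested, 7.96% fell there without those 3 libraries and 6.06% with all.

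Among the called members that averaged below 1 CPM in both groups compared, those with the smallest p were Cyp3a11, Cyp2r1, Cyp2c44, Cyp4a12a and Cyp4a14. Cyp4a12b, described above, is also a low member by its median of 0.733 CPM, but averaged 1.04 CPM in HDM and 1.39 CPM in PBS. Cyp3a11, the main family 3 enzyme of mouse liver, had 0 counts in the 3 SF-3-030+HDM libraries together, 0.138, 0.36 and 0.822 CPM in HDM, and 1.94, 0.16, 0.148 and 1.04 CPM in PBS. At a bound of 3 counts over the group, Cyp3a11 was at least 24.7-fold lower in SF-3-030+HDM than in HDM and at least 40.7-fold lower than in PBS. Single libraries carried these bounds: without HDM replicate 3 the first was 14.7-fold, without PBS replicate 1 the second was 24.2-fold, and without the 3 libraries with most receptor reads they were 14.7-fold and 8.85-fold. edgeR called both differences (adjusted p = 0.0296 and 0.00705), the first not without HDM replicate 2 or 3 or any 1 SF-3-030+HDM library (edgeR adjusted p = 0.0623 to 0.0899). Cyp4a14, likewise at 0 in SF-3-030+HDM, was at least 7.77-fold lower than in HDM and at least 11.6-fold lower than in PBS. Without HDM replicate 3 the first was 5.02-fold, and without the 3 libraries with most receptor reads they were 5.02-fold and 4.67-fold. Both genes were too low to test once the 3 libraries with most receptor reads were left out.

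Cyp2r1, the vitamin D 25-hydroxylase, kept its calls without those libraries. It had 0.279, 0.126 and 0.169 CPM in SF-3-030+HDM, 0.964, 0.548 and 0.517 CPM in HDM, and 0.803, 0.672, 1.05 and 0.961 CPM in PBS. Every SF-3-030+HDM library lay below every other library. Cyp2r1 fell by 1.83 ± 0.49 on the log2 scale in SF-3-030+HDM against HDM (edgeR adjusted p = 0.0416) and by 2.16 ± 0.48 in SF-3-030+HDM against PBS (edgeR adjusted p = 0.00802). The call against HDM was lost without PBS replicate 4 or any 1 HDM or SF-3-030+HDM library (edgeR adjusted p = 0.0597 to 0.154). Cyp2c44, which makes epoxides of arachidonic acid, had 0.24, 0.363 and 0.208 CPM in SF-3-030+HDM, 0.711, 0.448 and 0.634 CPM in HDM, and 1.06, 0.701, 0.888 and 1.06 CPM in PBS, with the SF-3-030+HDM libraries below all others. It fell by 1.75 ± 0.42 on the log2 scale in SF-3-030+HDM against PBS (edgeR adjusted p = 0.0109), a call lost without SF-3-030+HDM replicate 1 (edgeR adjusted p = 0.0527). Cyp4a12a averaged 0.0229 ± 0.0199 CPM in SF-3-030+HDM, 0.25 ± 0.138 CPM in HDM and 0.345 ± 0.0856 CPM in PBS (SD, n = 3, 3 and 4). It fell in both comparisons with SF-3-030+HDM (edgeR adjusted p = 0.0451 against HDM and 0.0122 against PBS), and the call against HDM was lost without PBS replicate 4 or any 1 HDM or SF-3-030+HDM library (edgeR adjusted p = 0.0555 to 0.129). The 35 members that were not tested averaged 0.0218 to 0.173 CPM over the 10 libraries, and 17 of the 89 members had 0 counts in all SF-3-030+HDM libraries. The share of all genes without a count in that group was not computed.

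Genes that work with P450 enzymes were read from 4 lists. Beside each list stand the shares of all genes tested: 6.06% fell and 3.43% rose in SF-3-030+HDM against HDM. In SF-3-030+HDM against PBS 18.1% fell and 11.8% rose, and in HDM against PBS 0.294% fell and 2.32% rose. The list counts were not tested against these shares. Of 15 electron transfer and haem genes, 1 fell in SF-3-030+HDM relative to HDM. Relative to PBS, 2 fell and 1 rose there. Por, the oxidoreductase that supplies microsomal P450 enzymes with electrons, had 219, 159 and 210 CPM in SF-3-030+HDM, 403, 449 and 332 CPM in HDM, and 722, 480, 699 and 718 CPM in PBS. The 3 groups did not overlap. Por fell by 1.03 ± 0.22 on the log2 scale in SF-3-030+HDM against HDM (edgeR adjusted p = 0.019) and by 1.70 ± 0.22 in SF-3-030+HDM against PBS. Alas1, which starts haem synthesis, averaged 245 ± 6.8 CPM in SF-3-030+HDM and 423 ± 78.9 CPM in PBS, and Hmox1, which breaks haem down, averaged 71.3 ± 12.9 CPM in SF-3-030+HDM and 43.2 ± 11.3 CPM in PBS (SD, n = 3 and 4). Against PBS, Alas1 fell and Hmox1 rose (edgeR adjusted p = 0.0144 and 0.0461).

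Of 23 receptors and sensors that regulate P450 genes, 3 rose in SF-3-030+HDM against HDM, 5 rose and 5 fell in SF-3-030+HDM against PBS, and 2 rose in HDM against PBS. Ahr had 97.9, 102 and 85.9 CPM in SF-3-030+HDM, 51.4, 42.2 and 32.7 CPM in HDM, and 36.2, 59.7, 49.2 and 53.2 CPM in PBS, with the SF-3-030+HDM libraries above all others. It rose by 1.15 ± 0.25 on the log2 scale in SF-3-030+HDM against HDM (edgeR adjusted p = 0.0178). The bile acid receptor Nr1h4, at 2.09 ± 0.49 CPM in SF-3-030+HDM and 0.27 ± 0.07 CPM in HDM, and the retinoid receptor Rxrg, at 2.69 ± 0.26 and 0.79 ± 0.41 CPM (SD, n = 3 each), rose in the same comparison. The AHR partner Arnt2, at 3.52 ± 0.92 CPM in HDM and 1.14 ± 0.24 CPM in PBS, and the vitamin D receptor Vdr, at 15.4 ± 1.5 CPM in HDM and 9.69 ± 0.81 CPM in PBS (SD, n = 3 and 4), rose in HDM against PBS.

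Of 43 tested phase 2 and companion enzymes, 4 fell and 1 rose in SF-3-030+HDM relative to HDM. Relative to PBS, 16 fell and 1 rose there. Ephx1, the microsomal epoxide hydrolase that acts on P450 products, averaged 120 ± 12.6 CPM in SF-3-030+HDM, 237 ± 38.8 CPM in HDM and 342 ± 10.1 CPM in PBS (SD, n = 3, 3 and 4). Relative to HDM, Ephx1 fell by 1.02 ± 0.19 on the log2 scale in SF-3-030+HDM (edgeR adjusted p = 0.0083), and it also fell there relative to PBS. Aldh1a3, which makes retinoic acid, rose in both comparisons, to 19.7 ± 1.52 CPM in SF-3-030+HDM, against 4.5 ± 1.29 CPM in HDM and 1.89 ± 1.09 CPM in PBS (SD, n = 3, 3 and 4).

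Of 15 eicosanoid enzymes, 2 fell and 1 rose in SF-3-030+HDM against HDM, 3 fell and 4 rose in SF-3-030+HDM against PBS, and 2 rose in HDM against PBS. Tbxas1, the thromboxane synthase, is a P450 protein by structure whose symbol lies outside the rule. It averaged 26.4 ± 4.49 CPM in SF-3-030+HDM, 29.1 ± 7.14 CPM in HDM and 12.8 ± 3.7 CPM in PBS (SD, n = 3, 3 and 4) and rose in both comparisons with PBS (edgeR adjusted p = 0.0075 for SF-3-030+HDM and 0.018 for HDM). Alox15, a lipoxygenase of activated macrophages and eosinophils, averaged 71.9 ± 14.1, 31.8 ± 26.0 and 4.22 ± 1.34 CPM in the same groups and also rose in both. Its HDM libraries had 37.4, 3.46 and 54.5 CPM, and HDM replicate 2 lay within the PBS range of 2.26 to 5.28 CPM. Hpgd, which inactivates prostaglandins, averaged 112 ± 1.08, 237 ± 87.2 and 370 ± 17.9 CPM, and Alox12 averaged 5.68 ± 0.77, 13.7 ± 5.11 and 17.8 ± 4.62 CPM. Both fell in SF-3-030+HDM against HDM and in SF-3-030+HDM against PBS.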

How the data were processed

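RNA of 10 whole-lung samples (3 SF-3-030+HDM, 3 HDM, 4 PBS) was enriched for mRNA and sequenced. Tools named in the submitters' processing notes are STAR 2.5.2b and Trimmomatic 0.36, with the build GRCm38. How reads were counted, on which annotation and strand, is not given in the sources used here. The deposited table holds estimated counts per gene, unnormalized per the file headers, of which 86.9% to 90.6% of filled values per library lie over 0.001 from a whole number. Blank cells (34.4%) were read as 0. Log2 values that the authors normalized are in the same deposited table and were not used for tests. Of the gene IDs, 53237 were in GENCODE M21, which gave positions.

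CPM came from the counts. Rounded counts of all genes were fitted with edgeR 4.0.16 (TMM, quasi-likelihood test, all 3 groups, R 4.3.3) after edgeR's filter on low counts, with Benjamini-Hochberg adjustment over 26235 genes. A standard error is the size of the log2 fold change divided by the square root of its F statistic. DESeq2 1.42.0, limma 3.58.1, other scalings, filters and sets of libraries were alternatives. The fit was tested on simulated counts. Replicates were not duplicates: 12 within-group pairs differed by a chi-square of at least 47.2 per degree of freedom. Depth limits members with few counts, and intervals were not computed.

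Named genes were a panel of known lung and role genes, the called members above 1 CPM, up to 4 called members below it per comparison, and up to 3 called genes per pathway list and comparison. Members and lists were chosen with earlier results of these data known.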

Additional observations from a re-analysis of the deposited data

Results flagged for a closer look

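Within the 4 PBS libraries, 11 of the 89 members had 1 library set apart above the others, by the gap to its nearest neighbour divided by the range of the group. Chance alone passes Dixon's limit for 4 samples in about 1 in 20 groups of normally distributed values. That rate need not hold for genes with few counts, so the 11 members are not weighed against it. For PBS replicate 2, the ratio was 0.972 for Cyp1a1, at 262 CPM, 0.913 for Cyp1b1, at 25.2 CPM, and 0.831 for Cyp3a57, at 0.388 CPM. For PBS replicate 3, it was 0.884 for Cyp2d22, at 74.5 CPM, and 1 for Cyp17a1, at 0.0677 CPM. For PBS replicate 1, the library with most receptor reads, it was 0.961 for Cyp4f37, at 1.20 CPM, 0.994 for Cyp2c40, at 0.235 CPM, 0.878 for Cyp2d10, at 0.161 CPM, and 0.854 for Cyp7a1, at 0.623 CPM. For PBS replicate 4, it was 0.927 for Cyp2a22, at 0.291 CPM, and 0.900 for Cyp2d34, at 0.218 CPM. The SF-3-030+HDM and HDM groups, with 3 libraries each, were not tested in this way.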

How the results depend on the processing

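Of 31 called changes in the members named, 11 were called in every alternative: both comparisons with SF-3-030+HDM for Cyp11a1, Cyp7b1 and Cyp3a13, and SF-3-030+HDM against PBS for Cyp2d22, Cyp2f2, Cyp2s1, Cyp4a12b and Cyp4b1. In SF-3-030+HDM against HDM, the 8 lower members of 54 tested became 24 of 70 with DESeq2, 2 of 54 with limma-voom and 14 of 89 with no filter. They became 15 of 46 without the libraries with most receptor reads, 1 at a threshold of 0.01, and 1 to 13 without 1 library. The genes that fell over all tested moved as well, from 1590 of 26235 to 4170 of 31394 with DESeq2, 535 of 26235 with limma-voom and 2627 of 45582 with no filter. They were 1864 of 23405 without the receptor libraries, 297 at 0.01, and 301 to 2263 without 1 library. In SF-3-030+HDM against PBS, the 22 lower members of 54 tested became 36 of 80 with DESeq2, 13 of 54 with limma-voom and 14 of 41 with only the 2 groups fitted. They became 8 at a threshold of 0.01 and 12 to 25 without 1 library, and the 3 higher members became 2 to 4 without 1 library. Over all genes tested, 4741 of 26235 fell, against 7603 of 33162 with DESeq2, 2018 of 26235 with limma-voom and 2962 of 22517 with only the 2 groups. At 0.01 it was 1310, and without 1 library 2013 to 5234. In HDM against PBS, the 2 lower members became 4 with upper-quartile scaling and 5 of 38 tested with DESeq2. They became 0 with only the 2 groups, at 0.01 or without the receptor libraries, and 0 to 4 without 1 library. The 0 higher members became 2 with DESeq2 and 0 to 1 without 1 library. Over all genes tested, 77 fell, against 128 with upper-quartile scaling, 376 with DESeq2 and 19 with only the 2 groups. At 0.01 it was 15, without the receptor libraries 35, and without 1 library 27 to 190. The causes were not tested.

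Deviations of same-numbered libraries from their group means had correlations of -0.589 to 0.174 over 9 pairs. Pairs with different numbers were not computed, and deviations within a group offset each other. These values therefore cannot show whether same-numbered samples belong together. With the replicate as a block, 1 member fell and 2 rose in SF-3-030+HDM against HDM, 6 fell and 2 rose in SF-3-030+HDM against PBS, and 0 fell in HDM against PBS. Of the 26235 genes in that fit, 406 fell and 390 rose, 1129 fell and 1503 rose, and 10 fell in the same comparisons. The uncalled log2 fold changes in HDM against PBS that turned round with the block were 0.61 for Cyp2b23 and 0.26 for Cyp3a11.

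Other uncalled changes turned round as follows, and the cause was not tested. Leaving out 1 library gave -2.50 to 0.014 for Cyp1a1, -0.29 to 0.55 for Cyp1b1, -1.46 to 0.42 for Cyp2b23 and -1.49 to 0.0021 for Cyp3a11 in HDM against PBS, and -0.22 to 2.00 against HDM and -0.93 to 1.28 against PBS for Cyp26b1 in SF-3-030+HDM. Limma-voom gave 0.083 for Cyp1b1 and 0.20 for Cyp2b23 in HDM against PBS. Without the Y-linked libraries Cyp1a1 was 0.046 in SF-3-030+HDM against HDM and Cyp1b1 0.71 in HDM against PBS. Without the receptor libraries Cyp1b1 was -0.26 in SF-3-030+HDM against PBS and Cyp2b23 1.40 in HDM against PBS. With upper-quartile scaling the median log2 fold change of all genes was -0.19 in SF-3-030+HDM against HDM, -0.31 in SF-3-030+HDM against PBS and -0.15 in HDM against PBS.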

Other observations

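Cyp2c40, a fatty acid hydroxylase of mouse family 2 chosen here after its values were seen, ran against most low members. It had 0.192, 0.358 and 0.205 CPM in SF-3-030+HDM, 0.0450, 0.0531 and 0.0596 CPM in HDM, and 0.235, 0, 0.00132 and 0 CPM in PBS. PBS replicate 1, the library with most receptor reads, lay among the SF-3-030+HDM libraries, and the other PBS libraries were at or near 0. Cyp2c40 did not pass over all libraries in SF-3-030+HDM against PBS (log2 fold change 2.33 ± 1.29, edgeR adjusted p = 0.191), and it was called as higher by limma-voom, without PBS replicate 1 (edgeR adjusted p = 0.00422) and without the 3 libraries with most receptor reads (edgeR adjusted p = 0.00861).

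Cyp4f16, also chosen after its values were seen, was even across the groups, at 23.5, 25.4 and 25.0 CPM in SF-3-030+HDM, 26.7, 26.4 and 27.95 CPM in HDM, and 31.9, 23.6, 26.0 and 19.3 CPM in PBS. Its log2 fold change in SF-3-030+HDM against PBS was 0.01 ± 0.16 (edgeR adjusted p = 0.96).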
